A study of Homo sapiens with 38 samples.

Results

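The 10 genes described here are those of the presomitic mesoderm and its segmentation clock: MSGN1, TBX6, DLL1, DLL3, HES7, LFNG, MESP1, MESP2, RIPPLY1 and RIPPLY2. They were taken by name and are 10 of the 43412 gene rows of the deposited table. The list was chosen with earlier results of these data known. All 10 passed the filter on low counts that left 24304 genes for testing. RNA was sequenced from H9, a human embryonic stem cell line, in 3 time courses of Wnt pathway activation, called arms below. In the CHIR arm, H9 cells received 10 µM CHIR99021, a small-molecule inhibitor of the kinase GSK3, and were collected at 8, 16, 24, 48 and 72 h, with untreated cells at 0 h. The bcat arm used H9 cells with a stably integrated deltaN90 beta-catenin, a constitutively active form under doxycycline control. These cells received 1 µg/ml doxycycline and were collected at 8, 16, 24, 48 and 72 h, with uninduced cells at 0 h. In the Wnt3a arm, H9 cells received 240 ng/ml recombinant Wnt3a and were collected at 8, 24, 48, 72, 96 and 120 h, with untreated cells of that arm at 0 h. Cells were maintained in mTESR1, and the agents were given together with a change to RPMI1640 with B27 lacking vitamin A. A change from 0 h therefore holds the agent and the medium, which cannot be told apart. Each of the 19 groups has 2 libraries labelled as biological replicates, except Wnt3a at 72 h, whose columns were identical in every gene and were counted as 1 library.

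In the vertebrate tailbud, WNT and FGF signals keep the presomitic mesoderm immature. The transcription factors MSGN1 and TBX6 specify it and, in the mouse, act on the genes of the NOTCH ligands DLL1 and DLL3. There NOTCH signalling drives the segmentation clock. In each cycle the repressor HES7 shuts off its own gene and that of the NOTCH-modifying glycosyltransferase LFNG. Where the WNT and FGF signals fade, MESP2 sets the border of the next segment, and RIPPLY1 and RIPPLY2, partners of TBX6, shut the programme down as the segment forms. Cycling is a matter of single cells in step with their neighbours, so a bulk library gives the mean over cells at each phase.

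The 250 bases before the RefSeq start (GRCh38.p14) are shown for 5 of the genes, read 5′ to 3′ on the strand of the gene. MSGN1, TBX6 and HES7 are shown because they had their highest levels together in CHIR-treated and bcat-induced cells, and MESP2 and RIPPLY1 because they were highest under Wnt3a. Capitals mark every match, on either strand, to the letters of 4 binding motifs: CTTTGAA or CTTTGAT for TCF/LEF, the DNA-binding partners of beta-catenin, AGGTGTG for T-box factors such as TBX6, GTGGGAA for the NOTCH effector RBPJ, and the E-boxes CAGCTG and CATTTG for bHLH factors such as MSGN1 and MESP2.
MSGN1 promoter, chr2:17816210-17816459, plus strand: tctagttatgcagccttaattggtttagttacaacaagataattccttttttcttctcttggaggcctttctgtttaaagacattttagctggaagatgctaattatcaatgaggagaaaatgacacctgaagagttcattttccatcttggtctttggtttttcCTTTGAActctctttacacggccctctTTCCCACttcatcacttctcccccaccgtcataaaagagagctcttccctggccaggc
TBX6 promoter, chr16:30091925-30092174, minus strand: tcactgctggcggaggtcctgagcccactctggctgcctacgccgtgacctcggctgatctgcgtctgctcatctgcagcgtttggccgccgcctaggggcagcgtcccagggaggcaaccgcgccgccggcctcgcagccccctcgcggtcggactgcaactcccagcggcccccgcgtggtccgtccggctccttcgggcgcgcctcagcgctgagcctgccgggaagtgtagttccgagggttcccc
HES7 promoter, chr17:8124107-8124356, minus strand: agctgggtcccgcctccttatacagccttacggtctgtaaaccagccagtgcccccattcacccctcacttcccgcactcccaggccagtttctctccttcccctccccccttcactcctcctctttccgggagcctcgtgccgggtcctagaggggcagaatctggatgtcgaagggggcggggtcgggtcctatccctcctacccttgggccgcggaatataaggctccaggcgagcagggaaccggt
MESP2 promoter, chr15:89776082-89776331, plus strand: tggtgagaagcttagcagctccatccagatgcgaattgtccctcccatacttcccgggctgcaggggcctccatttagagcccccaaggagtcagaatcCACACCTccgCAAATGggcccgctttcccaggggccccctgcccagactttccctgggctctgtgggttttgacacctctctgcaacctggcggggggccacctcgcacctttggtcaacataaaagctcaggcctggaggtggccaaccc
RIPPLY1 promoter, chrX:106903342-106903591, minus strand: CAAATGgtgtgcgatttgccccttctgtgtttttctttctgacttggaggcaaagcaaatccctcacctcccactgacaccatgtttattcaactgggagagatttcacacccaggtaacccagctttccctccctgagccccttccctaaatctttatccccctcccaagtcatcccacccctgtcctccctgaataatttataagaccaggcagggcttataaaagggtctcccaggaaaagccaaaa
MSGN1 held CTTTGAA, 85 bases before the start, and the reverse complement of GTGGGAA, 58 bases before it. MESP2 held the reverse complements of AGGTGTG and of CATTTG, 151 and 141 bases before its start, with no overlap between them. RIPPLY1 held the reverse complement of CATTTG as its first bases, while none of these letters stood in the windows of TBX6 and HES7. Of all 35116 windows of this length in the table, 5.94% held a TCF/LEF match, 3.84% a T-box match, 5.43% an RBPJ match and 23.6% an E-box match. A match is a description of the letters and no evidence of binding.

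Levels are counts-per-million values (CPM) of a library, with M for mega in library totals, scaled by the TMM method, and are compared within a gene, since they are not corrected for transcript length. The libraries held 2.45 M to 65.7 M estimated counts, with a median of 19 M. Rows of ribosomal RNA took 1.71% to 18.8% of the counts in the CHIR arm, 5.77% to 60.3% in the bcat arm and 0.419% to 4.94% in the Wnt3a arm. The mitochondrial ribosomal RNA gene MT-RNR2 took 5.84% to 11.8% of the counts in the CHIR arm, 0.234% to 0.999% in the bcat arm and 5.87% to 14% in the Wnt3a arm. Differences between arms and these differences in library make-up cannot be told apart. In bulk RNA, fewer cells of a type and less RNA per cell cannot be told apart either. Changes were tested with edgeR's quasi-likelihood test in 1 fit of all groups. P-values were adjusted by Benjamini-Hochberg over the 24304 genes of each comparison, and a gene was called at an adjusted p below 0.05. Beside each count of called members stands the share of all tested genes called in that comparison.

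**Figure D1:**
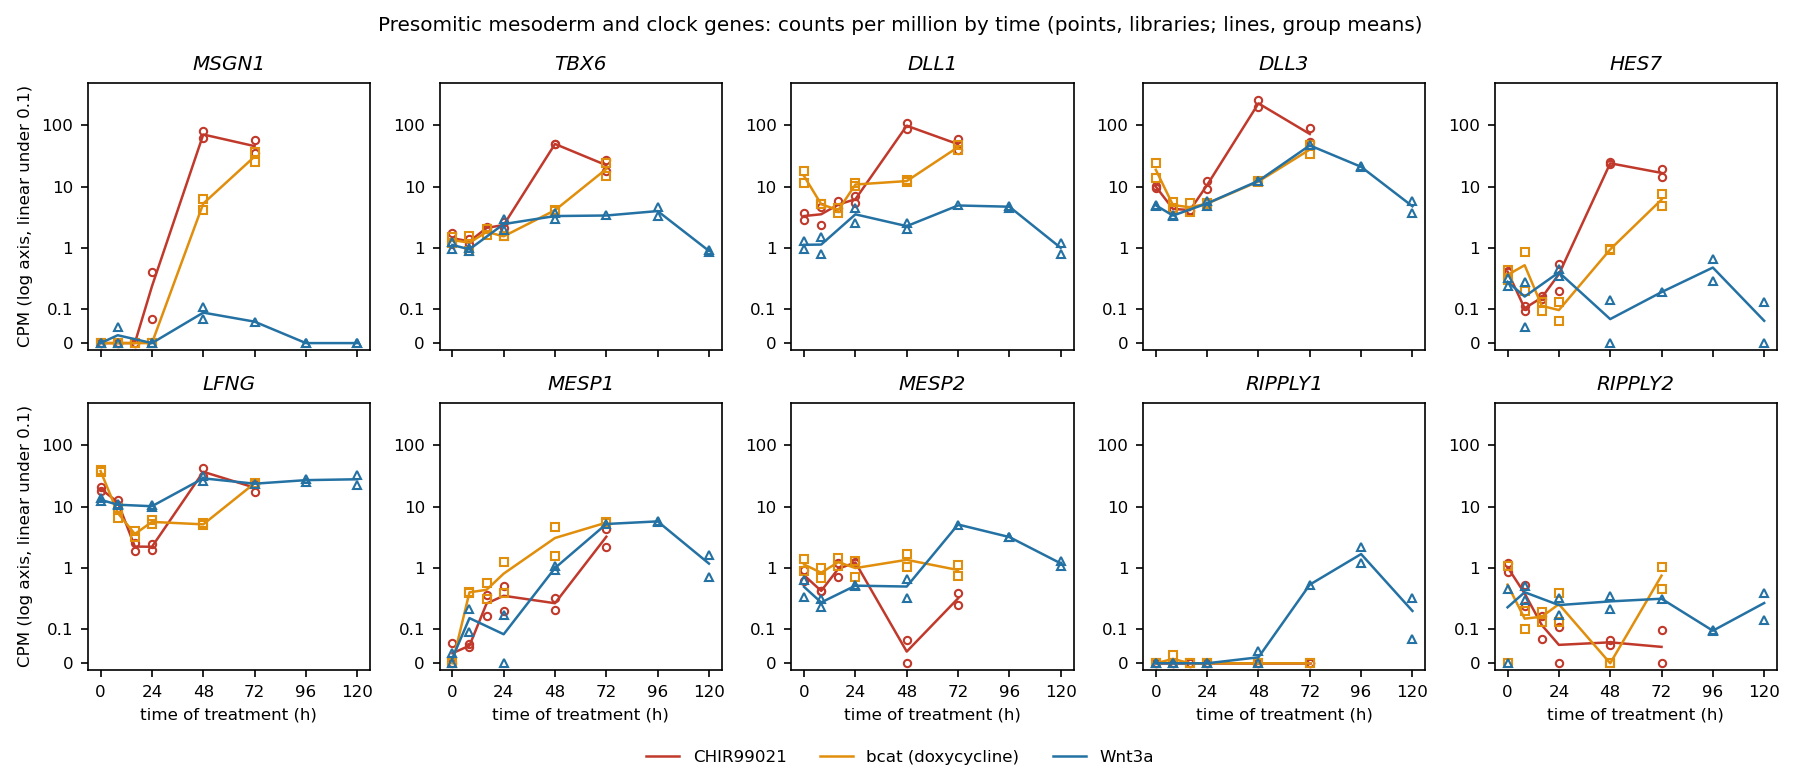
CPM (y axis, logarithmic above 0.1 and linear below) of the 10 genes against hours of treatment, with 1 point per library and lines through the group means. MSGN1, TBX6, DLL1, DLL3 and HES7 peaked at 48 h of CHIR with CHIR 72 h second, and MESP2 and RIPPLY1 were highest at 72 and 96 h of Wnt3a. LFNG dipped before 48 h in the CHIR arm and through 48 h in the bcat arm.

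MSGN1, the tailbud factor that marks entry into the presomitic mesoderm, appeared from no counts at all in both the CHIR and the bcat arm. It had 80.3 and 61.4 CPM at CHIR 48 h and 56.6 and 34.8 CPM at CHIR 72 h, against 0 CPM in both CHIR 0 h libraries. The level at CHIR 48 h was at least 1310-fold higher (adjusted p = 4.4e-10) and that at 72 h at least 935-fold higher (adjusted p = 1.53e-09), both bounds being set against 3 counts over the 0 h group. The first counts came at CHIR 24 h, with 0.398 and 0.0721 CPM, which was not called (adjusted p = 0.105). Under induced beta-catenin MSGN1 was at 0 in every library through 24 h, and had 6.38 and 4.18 CPM at 48 h and 25.0 and 36.8 CPM at 72 h. Those levels were at least 24.3-fold (adjusted p = 7.43e-05) and at least 127-fold higher (adjusted p = 1.69e-07) than at bcat 0 h. Wnt3a libraries never exceeded 0.109 CPM, a total of 3 counts in the group, and were at 0 at 0, 24, 96 and 120 h.

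TBX6, the T-box factor of the presomitic mesoderm, was present at a low level before treatment and rose with the same timing. At CHIR 48 h it had 48.9 and 50.2 CPM and at CHIR 72 h 26.8 and 17.8 CPM, against 1.16 and 1.72 CPM at CHIR 0 h. The log2 changes were 5.07 ± 0.28 (standard error, as in all fitted changes below) with adjusted p = 4.32e-15 and 3.93 ± 0.28 with adjusted p = 1.31e-12, and the groups did not overlap. After induction TBX6 had 4.16 and 4.05 CPM at 48 h and 14.8 and 24.0 CPM at 72 h, against 1.18 and 1.5 CPM at 0 h. These were log2 changes of 1.55 ± 0.38 (adjusted p = 0.00299) and 3.78 ± 0.34 (adjusted p = 4.81e-10). Under Wnt3a TBX6 rose to 4.6 and 3.36 CPM at 96 h against 0.970 and 1.25 CPM at 0 h. That was a log2 change of 1.71 ± 0.31 (adjusted p = 4.8e-05). It stood at 0.851 and 0.928 CPM at 120 h. Its Wnt3a calls at 24, 48 and 72 h were lost without replicate 2 of Wnt3a 0 h (adjusted p = 0.257, 0.1 and 0.113), the library of 65.7 M counts, which leaves only the one of 2.45 M as the starting point. The call at 24 h was also lost without replicate 2 of that time (adjusted p = 0.297) and in a fit of that arm alone (adjusted p = 0.0704).

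The NOTCH ligand genes also peaked at CHIR 48 h but, unlike MSGN1, had counts in every library. DLL1 had 109 and 88.1 CPM at CHIR 48 h and 59.4 and 39.1 CPM at CHIR 72 h, against 3.72 and 2.87 CPM at CHIR 0 h. The log2 changes were 4.92 ± 0.30 (adjusted p = 9.62e-14) and 3.93 ± 0.29 (adjusted p = 1.08e-11). DLL3, a divergent family member that in the mouse acts within the signal-receiving cell, had 258 and 197 CPM at CHIR 48 h and 91.7 and 52.6 CPM at CHIR 72 h, against 9.60 and 10.3 CPM at CHIR 0 h. Its log2 changes were 4.51 ± 0.24 (adjusted p = 8.09e-15) and 2.86 ± 0.23 (adjusted p = 6.93e-11). No treated library of either time overlapped the 0 h libraries for these 2 ligands. Before that rise DLL3 was lower, with 4.33 and 4.32 CPM at CHIR 8 h and 4.06 and 4.21 CPM at CHIR 16 h. Those were log2 changes of -1.21 ± 0.25 (adjusted p = 0.000563) and -1.27 ± 0.26 (adjusted p = 0.000786).

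With beta-catenin both ligands started high and fell before they rose. DLL1 had 5.17 and 5.11 CPM at 8 h, 4.52 and 3.71 CPM at 16 h and 39.8 and 48.4 CPM at 72 h, against 11.5 and 18.1 CPM in uninduced cells. The log2 changes were -1.58 ± 0.30 (adjusted p = 0.000316), -1.87 ± 0.31 (adjusted p = 9.21e-05) and 1.51 ± 0.28 (adjusted p = 0.000104), the first of which was lost without replicate 2 of bcat 0 h (adjusted p = 0.0772). DLL3 had 5.55 and 4.42 CPM at 8 h and 5.31 and 5.24 CPM at 24 h, against 13.8 and 23.9 CPM in uninduced cells. The log2 changes were -1.95 ± 0.27 (adjusted p = 4.18e-06) and -1.91 ± 0.26 (adjusted p = 4.44e-06). At 72 h it had 33.4 and 47.1 CPM, a log2 change of 1.01 ± 0.24 (adjusted p = 0.00185), which was lost without replicate 2 of bcat 72 h (adjusted p = 0.0504) and without the 4 libraries in doubt (adjusted p = 0.0679). These 4 are Wnt3a 0 h replicate 1, bcat 0 h replicate 1, bcat 24 h replicate 1 and bcat 48 h replicate 2.

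Under Wnt3a both ligands rose, with DLL3 at its Wnt3a peak in the single 72 h library. DLL3 had 12.5 and 12.2 CPM at 48 h, 47.0 CPM in the single library at 72 h and 20.5 and 21.5 CPM at 96 h, against 4.85 and 5.03 CPM at 0 h. The log2 changes were 1.30 ± 0.27 (adjusted p = 0.000781), 3.23 ± 0.29 (adjusted p = 1.97e-09) and 2.07 ± 0.26 (adjusted p = 3.27e-07), the first lost without replicate 2 of Wnt3a 0 h (adjusted p = 0.0867). DLL1 had 4.91 CPM at 72 h and 4.50 and 4.87 CPM at 96 h, against 0.970 and 1.28 CPM at 0 h. Its log2 changes were 1.97 ± 0.39 (adjusted p = 0.000563) and 1.91 ± 0.36 (adjusted p = 9.03e-05). Both DLL1 calls were lost without replicate 2 of Wnt3a 0 h (adjusted p = 0.0989 and 0.0597).

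HES7, the repressor at the core of the clock, rose at the same times as MSGN1 and TBX6 in the CHIR arm. It had 24.9 and 23.1 CPM at CHIR 48 h and 19.1 and 14.4 CPM at CHIR 72 h, against 0.402 and 0.415 CPM at CHIR 0 h. The log2 changes were 5.85 ± 0.45 (adjusted p = 6.83e-12) and 5.34 ± 0.45 (adjusted p = 6.77e-11). It had 4.75 and 7.49 CPM at bcat 72 h, against 0.294 and 0.428 CPM at bcat 0 h, a log2 change of 3.94 ± 0.60 (adjusted p = 6.04e-06). None of its 13 Wnt3a libraries exceeded 0.662 CPM, and no change from Wnt3a 0 h was called. A fall at CHIR 8 h, to 0.112 and 0.0949 CPM, was called at an adjusted p of 0.0432 but lost without any 1 of the 4 libraries compared (adjusted p = 0.101 to 0.198) and by DESeq2 (adjusted p = 0.0664).

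LFNG, the glycosyltransferase that modifies NOTCH and its ligands, was already expressed in undifferentiated cells, fell and came back. It had 13.0 and 10.7 CPM at CHIR 8 h, 2.60 and 1.89 CPM at 16 h, 2.49 and 1.95 CPM at 24 h and 43.1 and 31.3 CPM at 48 h, against 21.4 and 17.9 CPM at CHIR 0 h. The log2 change was -3.18 ± 0.24 at 16 h (adjusted p = 2.33e-11), -3.19 ± 0.24 at 24 h (adjusted p = 2.38e-11) and 0.93 ± 0.19 at 48 h (adjusted p = 0.000241). At CHIR 72 h it had 23.7 and 17.4 CPM, overlapping the CHIR 0 h libraries, and was not called. Induced bcat cells had LFNG at 3.95 and 3.24 CPM at 16 h, 4.96 and 5.36 CPM at 48 h and 23.9 and 24.5 CPM at 72 h, against 39.1 and 37.2 CPM in uninduced cells. It was lower at 16 h and 48 h by log2 changes of -3.36 ± 0.23 (adjusted p = 6.18e-12) and -2.89 ± 0.23 (adjusted p = 4.59e-11). The -0.65 ± 0.20 at 72 h (adjusted p = 0.015) was lost without any 1 of its 4 libraries (adjusted p = 0.0591 to 0.0736) and without the 4 libraries in doubt (adjusted p = 0.0847). Under Wnt3a no such dip was called, LFNG having 11.1 and 10.5 CPM at 8 h and 9.73 and 10.7 CPM at 24 h, against 12.3 and 13.8 CPM at 0 h. It was higher at 48 h, with 26.0 and 32.2 CPM (1.14 ± 0.21, adjusted p = 0.000152), and still at 120 h, with 33.1 and 23.0 CPM (1.08 ± 0.21, adjusted p = 0.000184).

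MESP1, the bHLH factor of the earliest mesoderm, had its highest level in each arm at 72 or 96 h. It had 4.3 and 2.17 CPM at CHIR 72 h, against 0 and 0.0592 CPM at CHIR 0 h. The ratio was 104 with a 95% counting interval of 28.5 to 864 (adjusted p = 2.76e-07). At CHIR 48 h, when MSGN1, TBX6, DLL1, DLL3 and HES7 peaked, it had 0.206 and 0.326 CPM and was not called (adjusted p = 0.0506). In the bcat arm it had 4.62 and 1.57 CPM at 48 h and 5.42 and 5.59 CPM at 72 h, against 0 CPM in both uninduced libraries. It was at least 15.7-fold (adjusted p = 6.71e-05) and at least 23.3-fold higher (adjusted p = 5.04e-06). Under Wnt3a it had 5.23 CPM at 72 h and 5.90 and 5.63 CPM at 96 h, against 0 and 0.0294 CPM at 0 h. The ratio at 96 h was 205 with a counting interval of 56.2 to 1700 (adjusted p = 6.65e-08). Intervals and bounds cover counting error only. With so few counts at 0 h the fitted log2 change moved with single libraries, at CHIR 72 h to 5.69, 9.23 and 5.68 in place of 6.31 without CHIR 0 h replicate 1, CHIR 0 h replicate 2 and CHIR 72 h replicate 1. It was 8.17 in place of 9.21 at bcat 48 h without bcat 48 h replicate 1 and 9.95 in place of 7.43 at Wnt3a 96 h without Wnt3a 0 h replicate 2, and these calls held. Earlier calls at CHIR 24 h (adjusted p = 0.0241) and bcat 24 h (adjusted p = 0.0131) rested on 16 and 63 counts and were lost without single libraries. The adjusted p-values were then those without CHIR 0 h replicate 1 (0.146), CHIR 0 h replicate 2 (0.0615), CHIR 24 h replicate 2 (0.455), bcat 0 h replicate 2 (0.235) and bcat 24 h replicate 2 (0.139).

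MESP2, which sets the segment border, was lower at CHIR 48 h and higher at 72 and 96 h of Wnt3a. At Wnt3a 48 h it had 0.326 and 0.669 CPM, with no change from 0 h called (adjusted p = 0.588). It had 0.0687 and 0 CPM at CHIR 48 h, against 0.603 and 0.918 CPM at CHIR 0 h. It was 19-fold lower with a counting interval of 4.96 to 162 (adjusted p = 1.45e-05). The fitted log2 change of -4.06 was -7.12 without CHIR 48 h replicate 1 and -3.39 without replicate 2. Under Wnt3a it had 5.13 CPM at 72 h and 3.19 and 3.21 CPM at 96 h, against 0.647 and 0.338 CPM at 0 h. Its log2 changes were 3.75 ± 0.54 (adjusted p = 4.7e-06) and 3.08 ± 0.50 (adjusted p = 9.27e-06). Without replicate 2 of Wnt3a 0 h these became 2.98 (adjusted p = 0.0162) and 2.30 (adjusted p = 0.035). The bcat libraries stayed between 0.691 and 1.70 CPM at all times, with no change called. At CHIR 72 h MESP2 had 0.251 and 0.388 CPM, a log2 change of -1.39 ± 0.48 (adjusted p = 0.0337) that was lost by DESeq2 (adjusted p = 0.0852) and without CHIR 0 h replicate 2 (0.293) or CHIR 72 h replicate 1 (0.373). At Wnt3a 120 h it had 1.31 and 1.07 CPM, a log2 change of 1.65 ± 0.51 (adjusted p = 0.0158) lost without Wnt3a 0 h replicate 2 (0.577) or Wnt3a 120 h replicate 1 (0.0768). MESP1 and MESP2 are neighbours on chromosome 15, at 89748661 to 89751310 on the minus strand and 89760591 to 89778754 on the plus strand (GENCODE annotation of GRCh38), and share a bHLH domain. How reads that fit both were split by the counting was not tested.

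RIPPLY1 was found in the late Wnt3a libraries and hardly elsewhere, at 0 in 30 of 37 libraries. It had 0.535 CPM at Wnt3a 72 h, 1.21 and 2.17 CPM at 96 h and 0.327 and 0.0713 CPM at 120 h, against 0 CPM in both Wnt3a 0 h libraries. These levels were at least 12.7-fold (adjusted p = 0.0103), at least 40.3-fold (adjusted p = 0.000351) and at least 4.86-fold higher (adjusted p = 0.031). All 3 calls were lost without Wnt3a 0 h replicate 2 (adjusted p = 0.414, 0.0983 and 0.558), the one at 120 h also without Wnt3a 120 h replicate 1 (adjusted p = 0.236), and DESeq2 gave the change at 96 h an adjusted p of 0.59. In the CHIR arm no library had a count, which at CHIR 48 h and 72 h allows up to 0.0632 and 0.0463 CPM over the group. Exons of RIPPLY1 overlap those of CLDN2 on the other strand of the X chromosome, and CLDN2 reached 0.261 CPM at most, and 0.214 CPM in the Wnt3a libraries of 72 h and later. RIPPLY2 had its highest group mean in untreated cells of the CHIR arm. It had 0.0687 and 0.0544 CPM at CHIR 48 h and 0.0964 and 0 CPM at CHIR 72 h, against 1.21 and 0.859 CPM at CHIR 0 h. At 48 h it was 15.6-fold lower with a counting interval of 5.07 to 78.2 (adjusted p = 0.000878). No change of RIPPLY2 was called under Wnt3a, where it ranged between 0 and 0.509 CPM. In the bcat arm it had 0 CPM in both 48 h libraries, against 0 and 1.07 CPM at 0 h. That fall of at least 6.59-fold (adjusted p = 0.0059) rested on bcat 0 h replicate 2 (adjusted p = 1 without it) and was also lost without bcat 48 h replicate 1 (adjusted p = 0.0955).

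**Figure D2:**
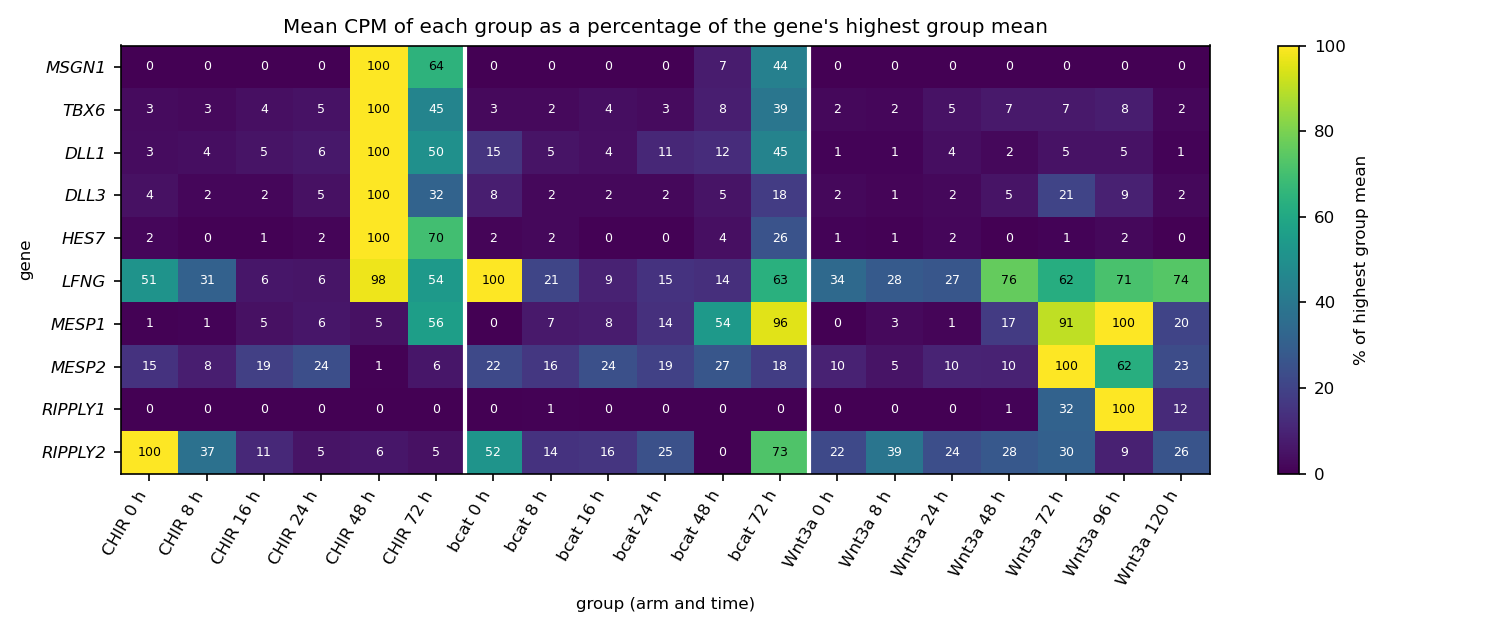
Group mean CPM as a percentage of the gene's highest group mean (colour and printed number), genes down the page and groups across by arm and time, white lines parting the arms. MSGN1, TBX6, DLL1, DLL3 and HES7 share CHIR 48 h as their highest group, while MESP1, MESP2 and RIPPLY1 have theirs at Wnt3a 72 or 96 h.

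Counted over the 10 genes, most calls of a higher level came at 48 h or later in every arm. In the CHIR arm 0 were higher and 3 lower at 8 h (20.9% of all genes called), 0 and 3 at 16 h (15.9%), 2 and 2 at 24 h (14.5%), 6 and 2 at 48 h (33.9%) and 6 and 2 at 72 h (24.9%). The median log2 change of the 10 was 3.57 at CHIR 48 h and 3.39 at CHIR 72 h, beside 0.02 and 0.00 over all genes. In the bcat arm 0 were higher and 3 lower at 8 h (18.7%), 0 and 3 at 16 h (10.9%), 1 and 2 at 24 h (12.8%), 3 and 3 at 48 h (21.3%) and 6 and 1 at 72 h (27.3%). In the Wnt3a arm 0 were called at 8 h (3.45%), where 2 had an unadjusted p below 0.05 and DESeq2 called 0. There 2 were higher at 24 h (20.2%), 4 at 48 h (16.1%), 7 at 72 h (16.4%), 7 at 96 h (39.9%) and 4 at 120 h (27.9%), with 0 lower at each time. Without replicate 2 of Wnt3a 0 h the Wnt3a calls were 0 at 24 h, 1 at 48 h, 3 at 72 h, 5 at 96 h and 1 at 120 h, so their number rests on that library. The CHIR 8 h count became 1 without CHIR 0 h replicate 1 or CHIR 8 h replicate 2, and the CHIR 24 h count 2 without CHIR 0 h replicate 2 or CHIR 24 h replicate 2. The Wnt3a 24 h count also became 0 without Wnt3a 24 h replicate 2, and the 120 h count 2 without Wnt3a 120 h replicate 1. The 16 comparisons with 0 h share their 0 h libraries within an arm.

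The arms did not start level. Uninduced cells of the bcat line had more DLL1 than untreated H9 of the CHIR arm, 11.5 and 18.1 against 3.72 and 2.87 CPM, a log2 difference of 2.24 ± 0.31 (adjusted p = 5.23e-06). In that comparison 3 of 10 members were called (15.7% of all genes), with LFNG higher by 0.96 ± 0.20 (adjusted p = 0.000883) and DLL3 by 0.99 ± 0.25 (adjusted p = 0.00564), the last lost without bcat 0 h replicate 2 (adjusted p = 0.457) and with the replicate number as a block (adjusted p = 0.0593). Wnt3a 0 h cells against CHIR 0 h cells, both labelled as untreated H9, gave 2 called members (10.9% of all genes), both lower. DLL1 differed by -1.38 ± 0.36 on the log2 scale (adjusted p = 0.0116), and DLL3 had 4.85 and 5.03 CPM against 9.60 and 10.3 CPM (adjusted p = 0.0125). The count became 1 without CHIR 0 h replicate 1 or replicate 2 and 0 without Wnt3a 0 h replicate 2.

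Steps between neighbouring times showed when the programme came and went. CHIR 48 h against 24 h gave 6 members higher and 1 lower (25.6% of all genes called), DLL3 by 4.39 ± 0.25 (adjusted p = 4.55e-14) and LFNG by 4.12 ± 0.24 (adjusted p = 3.66e-14). MSGN1 rose by 8.71 ± 0.52 (adjusted p = 3.27e-09), which was 9.84 without CHIR 24 h replicate 1 and 7.45 without replicate 2, and MESP2 was 29.5-fold lower with a counting interval of 7.73 to 251 (adjusted p = 1.53e-06). The fitted log2 change of MESP2 in that step, -4.72, was -7.80 without CHIR 48 h replicate 1 and -4.06 without replicate 2. CHIR 72 h against 48 h gave 2 higher and 4 lower (13% of all genes), with log2 changes of -1.65 ± 0.21 for DLL3 (adjusted p = 2.11e-06) and -1.14 ± 0.23 for TBX6 (adjusted p = 0.000678). MESP1 was higher by 3.67 ± 0.61 (adjusted p = 7.15e-05), or 3.05 without CHIR 72 h replicate 1. MSGN1 (-0.62) and HES7 (-0.52) were not called in that step, and without CHIR 72 h replicate 2 the count of 6 became 3.

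Over the same interval the bcat arm was still climbing. At bcat 72 h against 48 h 7 members were higher and 0 lower (6.18% of all genes), with MSGN1 at 2.50 ± 0.34 (adjusted p = 0.000328), LFNG at 2.24 ± 0.23 (adjusted p = 9.85e-08), TBX6 at 2.23 ± 0.27 (adjusted p = 1.52e-06) and DLL1 at 1.84 ± 0.27 (adjusted p = 5.03e-05). RIPPLY2 was also among the 7, with 16 counts against 0. Its call was lost without bcat 48 h replicate 1 or bcat 72 h replicate 2, and with the arms compared only (adjusted p = 0.0658). Wnt3a 120 h against 96 h gave 0 higher and 7 lower (22.8% of all genes), with DLL3 at -2.13 ± 0.26 (adjusted p = 7.95e-07), TBX6 at -2.15 ± 0.33 (adjusted p = 1.83e-05) and DLL1 at -2.23 ± 0.39 (adjusted p = 0.000117). The count of 7 was 3 without Wnt3a 120 h replicate 2, where MESP1 (adjusted p = 0.0554), MESP2 (0.102), HES7 (0.219) and RIPPLY1 (0.177) were lost. Of the 7 members called higher at 96 h, LFNG was the 1 that was not lower at 120 h.

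At matched times the arms were set against each other as the change from 0 h in one minus the change in the other. For CHIR minus Wnt3a 1 member was called at 24 h (9.95% of all genes), 6 at 48 h (16.1%) and 4 at 72 h (8.99%). For CHIR minus bcat 2 were called at 24 h (4.95%), 6 at 48 h (16.5%) and 3 at 72 h (7.2%). For bcat minus Wnt3a 3 were called at 24 h (15%), 3 at 48 h (12.1%) and 5 at 72 h (11.9%). At 48 h CHIR raised TBX6, DLL1, DLL3 and HES7 more than either other arm, by differences of 3.21 to 7.03 on the log2 scale. Of these, the DLL1 and HES7 differences from Wnt3a were lost without Wnt3a 0 h replicate 2 (adjusted p = 0.108 and 0.0658), and the HES7 difference from bcat without bcat 0 h replicate 2 (adjusted p = 0.244). At 72 h the difference of HES7 between CHIR and bcat was 1.40 and was not called, and that of DLL3 between CHIR and Wnt3a was -0.37 and was not called. Without Wnt3a 0 h replicate 2 the CHIR minus Wnt3a count at 72 h was 1 and the bcat minus Wnt3a count 3. The CHIR minus bcat count at 24 h was 1 without the 4 libraries in doubt or without any 1 of CHIR 0 h replicate 2, CHIR 24 h replicate 2, bcat 0 h replicate 2 and either bcat 24 h library.

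**Figure D3:**
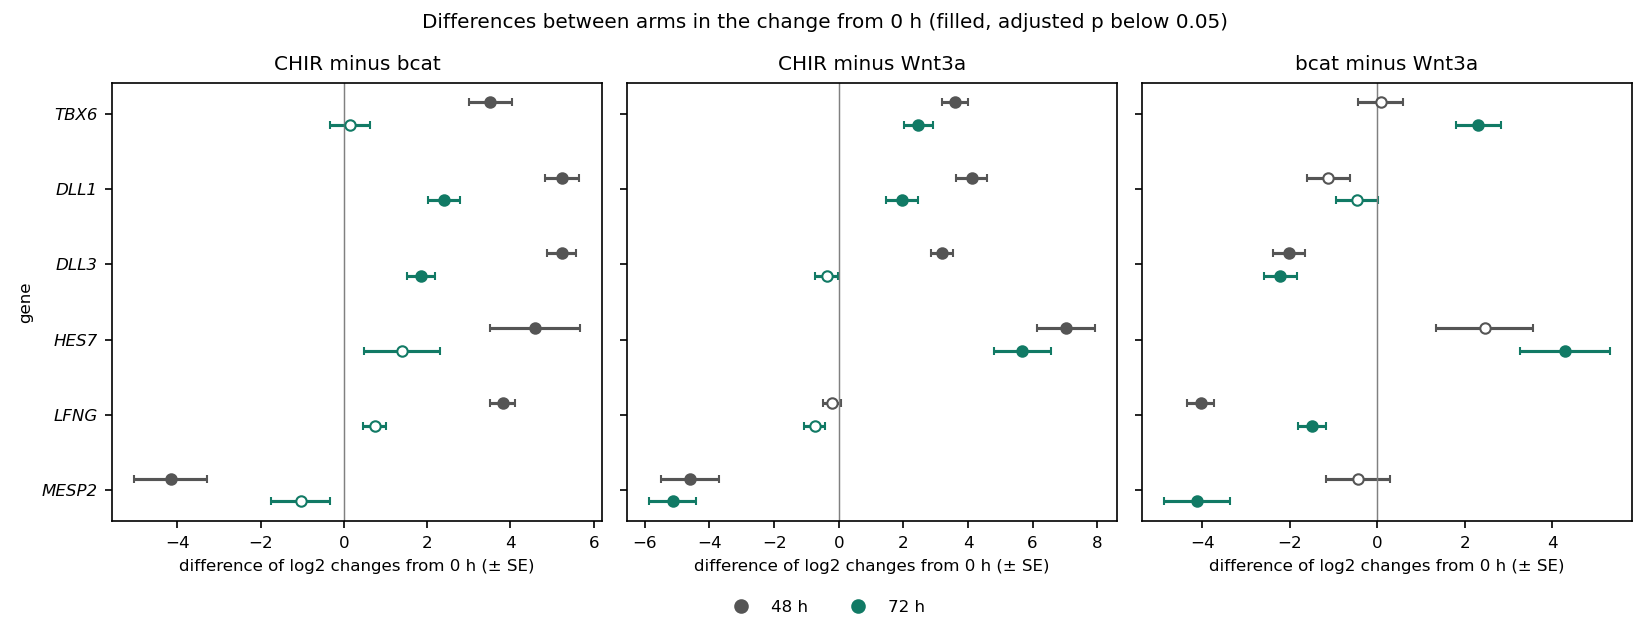
Differences between arms in the log2 change from 0 h (x axis, with the standard error as a bar) at 48 and 72 h for 6 genes (rows), filled where the adjusted p was below 0.05. TBX6, DLL1, DLL3 and HES7 lie right of 0 at 48 h in both CHIR panels, and MESP2 lies left of 0 at 72 h against Wnt3a for CHIR and bcat.

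MSGN1 and RIPPLY1 were at 0 in every 0 h library, so their differences of changes could not be fitted. Both stand as not called in the differences between arms, whatever their levels. For MSGN1, the CHIR and bcat levels were compared directly in a comparison added after the data were seen. CHIR 48 h against bcat 48 h gave 6 members higher and 2 lower (30.5% of all genes), MSGN1 by 3.70 ± 0.35 (adjusted p = 6.72e-07), DLL3 by 4.24 ± 0.25 (adjusted p = 1.79e-13) and HES7 by 4.65 ± 0.44 (adjusted p = 1.29e-09). MESP1 was lower at CHIR 48 h, with a log2 difference of -3.63 ± 0.62 (adjusted p = 3.48e-05), or -2.58 without bcat 48 h replicate 1. By 72 h, CHIR against bcat gave 2 higher and 2 lower (19.3% of all genes), and MSGN1 at 0.58 ± 0.30 was not called (adjusted p = 0.212). HES7 was higher by 1.47 ± 0.36 (adjusted p = 0.00336) and DLL3 by 0.86 ± 0.22 (adjusted p = 0.00477), both lost without CHIR 72 h replicate 1 (0.0567 and 0.31) or bcat 72 h replicate 1 (0.0835 and 0.116). The count of 4 was 1 without either of these libraries and 2 with the replicate number as a block.

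Across the 19 group means, MSGN1, TBX6 and HES7 formed the tightest trio, with Pearson's r of 0.967 for MSGN1 and HES7, 0.946 for MSGN1 and TBX6 and 0.945 for TBX6 and HES7 on log2(CPM + 1). MESP2 stood apart from it (r = -0.386 with HES7) and nearest to RIPPLY1 (r = 0.710). Of 13729 genes with at least 5 CPM in some group, those most like MSGN1 were the HOX genes HOXB4 (r = 0.992), HOXB3 (0.990) and HOXA5 (0.987), patterning factors of the trunk. HOXA5 was also among the 3 genes most like HES7 (0.978) and TBX6 (0.949), beside CCDC85A (0.980) for HES7 and ST8SIA6 (0.957) for TBX6. DLL3 was most like SNAI1 (0.929), a factor of epithelial-mesenchymal transition that cycles in the mouse clock, and DLL1 most like RRNAD1 (0.949). For LFNG, MESP1, MESP2, RIPPLY1 and RIPPLY2 the closest genes were TBKBP1 (0.802), SAMD5 (0.903), KIT (0.891), RP11-348J12.5 (0.976) and ACER2 (0.718). These are descriptions over 19 groups that share libraries, depth and scaling, and carry no p. MSGN1 was at 0 in 11 of the groups and RIPPLY1 in 14, so their correlations rest on the few groups with counts.

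Most posterior and tailbud genes around the members were called higher in each arm. Of 20 tested, 18 were higher and 1 lower at CHIR 48 h, 19 and 0 at bcat 72 h and 15 and 2 at Wnt3a 96 h, where CDX4 and NKX1-2 were lower. The shares of all genes called in these comparisons were 33.9%, 27.3% and 39.9%. The caudal homeobox gene CDX1 had 211 and 273 CPM at CHIR 48 h and 118 and 107 CPM at bcat 72 h, against 0 CPM in both CHIR 0 h libraries and 0 and 0.107 CPM at bcat 0 h, and never exceeded 1.48 CPM in the Wnt3a arm. CYP26A1, which degrades retinoic acid, had 0.103 and 0.435 CPM at CHIR 48 h against 5.53 and 4.83 CPM at CHIR 0 h, a log2 change of -4.43 ± 0.64 (adjusted p = 9.02e-06). Under Wnt3a it had 298 and 229 CPM at 96 h against 1.62 and 1.82 CPM at 0 h, a log2 change of 7.19 ± 0.47 (adjusted p = 8.58e-11). FGF17, a tailbud FGF ligand, had the largest fitted change of the list under Wnt3a, with 131 and 87.4 CPM at 96 h against 0.323 and 0.0147 CPM at 0 h (adjusted p = 5.96e-13), but was higher still at CHIR 48 h, with 341 and 310 CPM. At bcat 72 h the largest change was that of CDX2, with 236 and 209 CPM. CYP26A1 under Wnt3a was chosen after its values were seen, as were HES1, NANOG, SOX17, CER1 and CXCR4 below.

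Among the genes of formed somites, 12 of 16 were tested, of which 4 were higher and 1 lower at CHIR 48 h, 4 and 0 at bcat 72 h and 7 and 0 at Wnt3a 96 h. The shares called, 41.7%, 33.3% and 58.3%, stand beside 33.9%, 27.3% and 39.9% of all genes, so the CHIR and bcat shares lie near the background. Among the 7 genes called at Wnt3a 96 h, FOXC2, NKX3-2 and TWIST1 had 1 count each at Wnt3a 0 h, and PAX7 had 3. These calls were not checked with a library left out. ALDH1A2, which makes retinoic acid, had 96.5 and 107 CPM at CHIR 48 h against 0.151 and 0.118 CPM at CHIR 0 h, a log2 change of 9.54 ± 0.47 (adjusted p = 1.14e-15). PAX3, a factor of dermomyotome and neural crest, had 51.4 and 43.9 CPM at bcat 72 h against 0.294 and 0.642 CPM at bcat 0 h, a log2 change of 6.44 ± 0.57 (adjusted p = 1.16e-09). TWIST1, a mesenchymal factor, had 6.24 and 5.34 CPM at Wnt3a 96 h against 0 and 0.0147 CPM at 0 h (adjusted p = 2.44e-07). MEOX1, a defining somite gene, reached no more than 0.316 CPM in any library.

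The NOTCH machinery outside the members had calls in both directions. Of 19 genes, 4 were higher and 6 lower at CHIR 48 h, 4 and 2 at bcat 72 h and 8 and 3 at Wnt3a 96 h. The shares called were 52.6%, 31.6% and 57.9%, beside 33.9%, 27.3% and 39.9% of all genes, and that at bcat 72 h lies near the background. HES1, a general NOTCH target, had 9.69 and 11.2 CPM at CHIR 48 h against 30.4 and 34.9 CPM at CHIR 0 h, a log2 change of -1.65 ± 0.23 (adjusted p = 8.19e-07), while HES7 rose. HES4, a NOTCH target of the same family, had the largest rise of the list, a log2 change of 2.39 ± 0.37 at CHIR 48 h and 4.86 ± 0.52 at Wnt3a 96 h. Under Wnt3a HES1 had 40.6 and 32.5 CPM at 96 h against 5.50 and 8.13 CPM at 0 h, a log2 change of 2.29 ± 0.25 (adjusted p = 1.5e-08). Of 10 other genes that cycle in mouse embryos, 5 were higher and 1 lower at CHIR 48 h, 10 and 0 at bcat 72 h and 9 and 0 at Wnt3a 96 h. The shares of all genes called were again 33.9%, 27.3% and 39.9%. DKK1, a secreted WNT inhibitor, had 1220 and 854 CPM at CHIR 48 h against 0.151 and 0.0888 CPM at CHIR 0 h, a log2 change of 13.11 ± 0.49 (adjusted p = 1.09e-15), and 12.7 and 19.5 CPM at Wnt3a 96 h. DUSP6, a feedback phosphatase of FGF signalling, was the 1 lower gene, with 127 and 162 CPM at CHIR 48 h against 281 and 294 CPM at CHIR 0 h.

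Markers of other cell types moved beside the members. For the counts below, the shares of all genes called were 33.9% at CHIR 48 h, 27.3% at bcat 72 h and 39.9% at Wnt3a 96 h. All 6 definitive endoderm markers were higher at Wnt3a 96 h, where their summed level was 261 to 369 CPM against 1.38 to 2.26 CPM at Wnt3a 0 h, and SOX17, which defines this lineage, had 153 and 88.2 CPM there. The endoderm sum was higher still at Wnt3a 48 h, with 536 to 689 CPM, and was 410 CPM in the single 72 h library. MESP2 and RIPPLY1 had group means of 0.498 and 0.0176 CPM at Wnt3a 48 h and were highest at 72 and 96 h respectively. The part of endoderm cells in the Wnt3a changes was not tested. At CHIR 48 h the endoderm sum was 241 to 273 CPM against 3.97 to 4.2 CPM at CHIR 0 h, almost all of it CXCR4 with 270 and 237 CPM, a receptor gene that mesoderm also uses, while SOX17 and CER1 were at 0. At bcat 72 h it was 74.3 to 79.6 CPM against 2.35 to 3.96 CPM at bcat 0 h, with SOX17 at 0.223 and 0.105 CPM. DLL1, DLL3 and LFNG also serve neurogenesis, and the neurogenic sum was 15.2 to 22.5 CPM at bcat 72 h against 2.14 to 2.65 CPM at bcat 0 h, of which NEUROG2 made 20.7 and 13.9 CPM, with PAX6 and NEUROG1 at 0. It was 0.163 to 0.997 CPM at CHIR 48 h against 2.04 to 2.41 CPM at CHIR 0 h, with PAX6 at 0. Of the 3 neurogenic genes tested there, SOX1 was lower (2 against 26 counts, adjusted p = 0.00513) and NEUROG2 higher (5 against 0 counts, adjusted p = 0.0302). Their part in the ligand levels was not tested. Of 8 lateral and cardiac markers, 3 were higher and 2 lower at CHIR 48 h and at bcat 72 h, and 4 higher and 1 lower at Wnt3a 96 h. FOXF1, GATA4 and HAND1 were higher in all 3 comparisons. FOXF1 had 3.57 and 10.8 CPM at CHIR 48 h against 0 and 0.0296 CPM at CHIR 0 h. Its call at Wnt3a 96 h rested on 4 counts against 0 at Wnt3a 0 h (adjusted p = 0.0445). GATA4 had 16.5 and 17.5 CPM at Wnt3a 96 h against 0 and 0.0147 CPM at Wnt3a 0 h. KDR, a receptor gene already expressed in the untreated cells, was lower in all 3 and made up most of the sum at 0 h. The sum of the 8 was 27.0 to 33.5 CPM at CHIR 48 h against 162 to 163 CPM at CHIR 0 h. It was 50.5 to 79.1 CPM at bcat 72 h against 197 to 260 CPM at bcat 0 h, and 82.6 to 101 CPM at Wnt3a 96 h against 121 to 140 CPM at Wnt3a 0 h. All 6 pluripotency markers were lower at CHIR 48 h and at bcat 72 h and 5 of 6 at Wnt3a 96 h. Their sum was 1690 to 1730 CPM at CHIR 48 h against 3950 to 4020 CPM at CHIR 0 h. It was 1690 to 1900 CPM at bcat 72 h against 3660 to 4160 CPM at bcat 0 h. At Wnt3a 96 h it was 2010 to 2210 CPM against 3600 to 4350 CPM at Wnt3a 0 h. NANOG had 0.550 and 0.762 CPM at CHIR 48 h against 82.8 and 77.3 CPM at CHIR 0 h, and 102 and 80.7 CPM at Wnt3a 96 h against 110 and 153 CPM at Wnt3a 0 h, where it was not called (adjusted p = 0.0601).

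**Figure D4:**
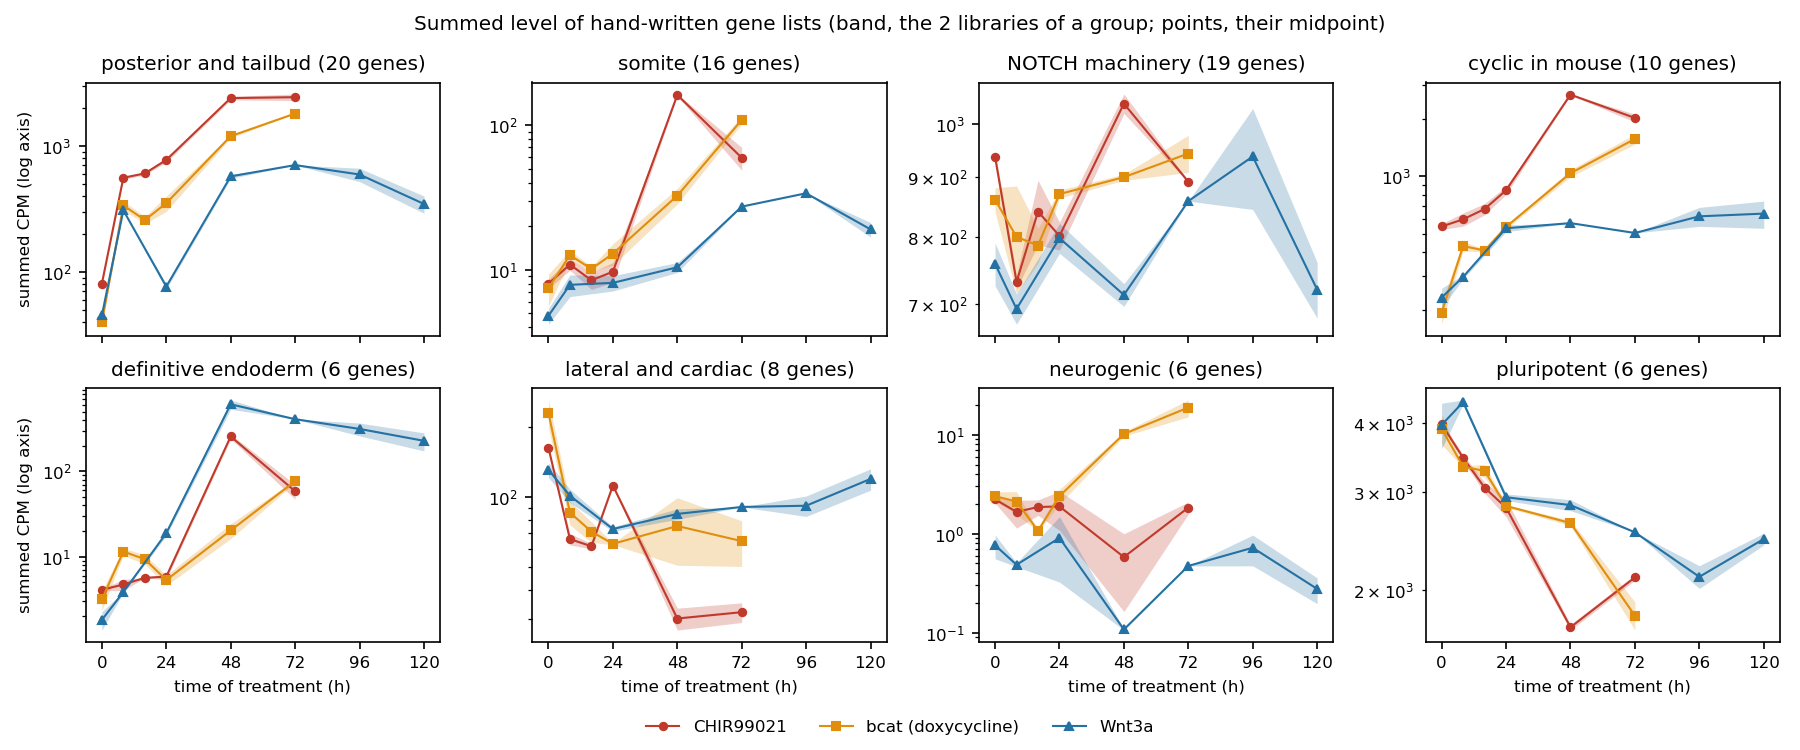
Summed CPM (y axis, logarithmic) of 8 hand-written gene lists against hours of treatment, with a band between the 2 libraries of each group and points at their midpoint (Wnt3a 72 h is 1 library). The posterior and tailbud sum was highest in the CHIR arm from 8 h on, and the definitive endoderm sum highest under Wnt3a from 24 h on.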

How the data were processed

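RNA was measured by sequencing total RNA prepared with a stranded total RNA kit, per the labels' protocols. The deposited table holds estimated counts per gene that the authors made with kallisto 0.43.0, per the submitters' processing notes. For the genome build, the annotation and the strand setting, the sources used here give nothing, so reads of genes that overlap on opposite strands may not be parted. Each deposited column is the estimated counts times 1 constant, between 0.265 and 6.58. Columns were divided by that constant, the value shared by at least 2098 genes, and rounded to whole numbers, after which 56.9% to 81.3% of values up to 20 were within 0.1 of a whole number. Of 38 libraries 37 were used, since the Wnt3a 72 h columns were identical. In 27 rows the symbol had been turned into a date.

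The whole-number counts entered edgeR 4.0.16, run in R 4.3.3 (TMM scaling, filterByExpr by group, 1 quasi-likelihood fit of 19 groups with 18 residual degrees of freedom, checked on simulated data). Adjusted p-values are edgeR's with Benjamini-Hochberg adjustment over 24304 genes in each of 33 comparisons, which gave 330 tests of members. A gene at 0 in a group was given a bound from 3 counts over the group, and with 1 to 3 counts a ratio with a 95% counting interval. Libraries held 2.45 M to 65.7 M counts, so few counts set the precision of MESP1, MESP2, RIPPLY1 and RIPPLY2. Replicates are labelled biological, and no source used here says how they were separated, so p-values measure the spread between these libraries. Alternatives were DESeq2 1.42.0, DESeq2 size factors, no filter, the deposited values as they stand, fits of the arms compared only, a replicate block, leaving out 4 libraries in doubt for depth or ribosomal RNA, and leaving out each library in turn. The fits that leave out a library kept the trended dispersion of all libraries, and a lone library was assumed to vary like the other groups. Results of the alternatives were kept for the members only, so calls of genes in the hand-written lists were not checked in this way.

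All 10 members are reported. From the hand-written lists the called gene with the largest change in each direction was to be named, and for likeness the 3 genes with the highest correlation over group means, among genes with at least 5 CPM in some group. The members and lists were chosen with earlier results of these data known, and other genes were named after their values were seen. Promoter sequences are from RefSeq (GRCh38.p14), which gave 9 windows for 7 members.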

Additional observations from a re-analysis of the deposited data

Results flagged for a closer look

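The results below are differences between arms in the log2 change from 0 h that passed edgeR's test of the difference itself. No explanation was tested.

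CHIR minus Wnt3a gave -2.81 for LFNG at 24 h. At 48 h it gave 4.12 for DLL1, 3.21 for DLL3, 7.03 for HES7, 3.60 for TBX6, -4.60 for MESP2 and -3.59 for RIPPLY2. At 72 h it gave 1.95 for DLL1, 5.68 for HES7, 2.46 for TBX6 and -5.14 for MESP2. Without Wnt3a 0 h replicate 2 the 72 h differences of DLL1, HES7 and TBX6 were lost (adjusted p = 0.55, 0.15 and 0.219), and that of MESP2 was -4.36. At 48 h the same library ended the DLL1 and HES7 calls (adjusted p = 0.108 and 0.0658). The RIPPLY2 difference at 48 h (adjusted p = 0.0486) was lost without any 1 of the 8 libraries except Wnt3a 0 h replicate 2 (adjusted p = 0.0581 to 0.297), without which it was -9.65, and with the replicate block (adjusted p = 0.0535). At 48 h HES7 was 11.34 without Wnt3a 48 h replicate 2. MESP2 was -7.66 and -3.94 without CHIR 48 h replicate 1 and 2, -3.81 without Wnt3a 0 h replicate 2 and -3.86 without Wnt3a 48 h replicate 2.

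CHIR minus bcat gave 1.48 for DLL1 and 2.03 for DLL3 at 24 h. At 48 h it gave 5.24 for DLL1, 5.23 for DLL3, 4.58 for HES7, 3.82 for LFNG, 3.52 for TBX6 and -4.16 for MESP2. At 72 h it gave 2.41 for DLL1, 1.85 for DLL3 and -3.78 for RIPPLY2. The DLL1 levels at 72 h, with means of 49.2 CPM in CHIR and 44.1 CPM in bcat, were not called different (0.17 ± 0.25, adjusted p = 0.703). At 0 h DLL1 was higher by 2.24 in the bcat arm than in the CHIR arm. The DLL3 difference at 72 h was lost without bcat 0 h replicate 2 (adjusted p = 0.0514). The RIPPLY2 difference (adjusted p = 0.0495) was lost without any 1 of CHIR 0 h replicates 1 and 2, CHIR 72 h replicates 1 and 2, bcat 0 h replicate 1 and bcat 72 h replicate 2 (adjusted p = 0.0704 to 0.208). It was also lost without the 4 libraries in doubt (adjusted p = 0.0888) and with the arms compared only (adjusted p = 0.0606), and was -10.81 without bcat 0 h replicate 2. The DLL1 difference at 24 h was lost without CHIR 0 h replicate 2, CHIR 24 h replicate 2, bcat 0 h replicate 2 or either bcat 24 h library (adjusted p = 0.0533 to 0.275). The HES7 difference at 48 h was lost without bcat 0 h replicate 2 (adjusted p = 0.244), and that of MESP2 was -7.25 and -3.50 without CHIR 48 h replicate 1 and 2.

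bcat minus Wnt3a gave -2.05 for DLL1, -2.01 for DLL3 and -2.38 for LFNG at 24 h. At 48 h it gave -2.02 for DLL3, -4.03 for LFNG and -6.68 for RIPPLY2. At 72 h it gave -2.21 for DLL3, 4.29 for HES7, -1.49 for LFNG, -4.11 for MESP2 and 2.31 for TBX6. Without Wnt3a 0 h replicate 2 the HES7 and TBX6 differences at 72 h were lost (adjusted p = 0.236 and 0.275), and that of MESP2 was -3.34. The DLL1 difference at 24 h was lost without bcat 0 h replicate 2 (adjusted p = 0.0505), Wnt3a 0 h replicate 2 (0.103) or Wnt3a 24 h replicate 2 (0.0591). The RIPPLY2 difference at 48 h (adjusted p = 0.0443) was 0.32 without bcat 0 h replicate 2, and was lost without either bcat 48 h library, Wnt3a 0 h replicate 1 or either Wnt3a 48 h library (adjusted p = 0.0555 to 0.21). The bcat differences start from uninduced cells with more DLL1, DLL3 and LFNG than the CHIR 0 h cells. Their 0 h means were also above those of Wnt3a 0 h, at 38.2 against 13 CPM for LFNG and 18.8 against 4.94 CPM for DLL3. At 48 h the bcat and Wnt3a means were 12.1 against 12.4 CPM for DLL3 and 5.16 against 29.1 CPM for LFNG. At 72 h they were 40.2 against 47 CPM for DLL3 and 24.2 against 23.8 CPM for LFNG, with 1 Wnt3a library.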

How the results depend on the processing

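Of the 149 member calls and 5 changes given as not called, the side of the threshold held for 140 of 145 with DESeq2 (9 had no adjusted p), 153 of 154 with DESeq2 size factors, 150 with no filter, 144 with the deposited values as they stand, 146 with the arms compared only, 146 with the replicate block and 147 without the 4 libraries in doubt. None of these turned a direction. Leaving out 1 library at a time gave 722 values, of which 612 kept their side, 109 lost the call and 1 reversed, the bcat minus Wnt3a difference of RIPPLY2 at 48 h (-6.68, left-out range -12.67 to 0.32). The cause was not tested. The count of called members moved by over 1.5 times at Wnt3a 24 h with the arms compared only (1 against 2), for CHIR minus bcat at 24 h without the 4 libraries in doubt (1 against 2) and for CHIR 72 h against bcat 72 h with the replicate block (2 against 4). Over all tested genes, the differences between the 2 libraries of a group were hardly correlated between groups of an arm (-0.0519 to 0.0552). Genes with few counts bring their counting error into these correlations, so they cannot tell whether the numbers pair the libraries. Leaving out 1 library, the counts ranged over 1 to 2 at CHIR 8 h, 2 to 3 at CHIR 24 h, 0 to 2 at Wnt3a 24 h, 1 to 4 at Wnt3a 48 h, 3 to 7 at Wnt3a 72 h and 1 to 4 at Wnt3a 120 h. They ranged over 1 to 4 for CHIR minus Wnt3a at 72 h, 1 to 2 for CHIR minus bcat at 24 h and 3 to 5 for bcat minus Wnt3a at 72 h. They ranged over 3 to 6 for CHIR 72 h against 48 h, 3 to 7 for Wnt3a 120 h against 96 h, 0 to 2 for Wnt3a 0 h against CHIR 0 h and 1 to 3 for CHIR 72 h against bcat 72 h. Replicate 1 of Wnt3a 0 h holds 2.45 M counts, which limits the precision of changes from Wnt3a 0 h for genes with few counts.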
